A study of Rattus norvegicus with 9 samples.

Results

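Tight junction genes of the rat ileum are described here. The 10 genes are the pore-forming claudins Cldn2 and Cldn15, the sealing claudins Cldn3, Cldn4, Cldn7, Cldn8 and Cldn23, and the junction proteins Ocln, Tjp1 and F11r. They were taken by gene symbol from both deposited tables, as a set chosen with earlier results of these data known. The tables list 17120 genes, after 25 symbols that had turned into dates were set aside. All 10 were found in both tables, and all 10 passed the filter on low values, which kept genes averaging 1 FPKM or more across a table's 6 columns. FPKM scales fragment counts by transcript length and by the number of mapped fragments, so levels of different genes can be compared within a library.

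Total RNA was sequenced from ileum, the last stretch of small bowel. The rats were Otsuka Long-Evans Tokushima fatty, an inbred line that grows obese and diabetic and lacks a working cholecystokinin receptor. All groups share this strain, and all tissue was taken 1 month after surgery. The groups were ileum after Roux-en-Y gastric bypass (RYGB) labelled FDG decreased, ileum after RYGB labelled FDG increased, and ileum of sham-operated rats, with 3 samples each. RYGB joins a small stomach pouch to the jejunum, so food no longer passes the duodenum. FDG is read here as fluorodeoxyglucose, the glucose analogue of positron emission tomography, which the labels do not spell out. No age or sex is given, and the labels do not say whether each sample is its own animal. The p-values therefore reflect the spread among these samples alone, and that spread may be technical.

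The tables hold 12 library columns but 10 distinct libraries. The FDG-increased libraries numbered 1 and 2 in the FDG comparison reappear in the sham comparison under other numbers. Each table also has an FDG-increased library of its own, so 4 such libraries stand against 3 in the labels. In the FDG comparison, libraries of the same number are called a pair below. In the sham comparison, FDG-increased values are given with the library found only there first, then pair 1, then pair 2. The sum of FPKM ranged from 465697 to 864511 per library. Read depth is unknown, since the values used here are not counts. Sham replicate 1 stood apart by region. Fabp6, the ileal bile acid binding protein, was at 22.6 FPKM in that library, whereas the other sham libraries held 8375 and 11347 FPKM. The lactase gene Lct, which marks upper small bowel, was at 253 FPKM in sham replicate 1, beside 8.60 and 0.317 FPKM in replicates 2 and 3. Sham replicate 2 stood apart by its adipocyte markers, which summed to 457.2 FPKM there, against 51.0 and 141 FPKM in sham replicates 1 and 3, and it had the lowest sum of epithelium markers, at 4004 FPKM.

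Tight junctions close the gap between neighbouring epithelial cells near their apical side and set what passes between cells. Claudins are membrane proteins whose strands form the seal. Some claudins line pores for small ions and water, while others raise the resistance of the strand. In the small intestine sodium that returns to the lumen through such pores feeds the sodium-coupled uptake of glucose. Ocln (occludin) and F11r (junctional adhesion molecule A) are further membrane proteins of the junction, and Tjp1 (zonula occludens 1) is the scaffold that ties claudins to the actin belt.

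The claudin RNA of all libraries was made up mainly of sealing claudins. Cldn7, which lies along the lateral membrane and binds the adhesion protein Epcam, made up 35.9% to 49.5% of summed claudin FPKM over the library columns. Cldn3, a barrier claudin of gut epithelium, made up 16.2% to 35.8%. The pore-forming claudins followed in the range of their shares. Cldn15, a sodium channel of the villus whose loss in mice impairs glucose absorption, made up 9.69% to 22.3%. Cldn2, a channel for cations and water known from crypts, made up 3.21% to 13.5%. Of the other sealing members, Cldn4 was at 0.934% to 10.8%, Cldn23 at 2.15% to 5.34% and Cldn8 at 0.048% to 2.35%. The order differed between libraries, and in sham replicate 1, for example, Cldn4 made up 7.55% and Cldn2 3.65%. The 7 claudin members together made up 93.5% to 98.2%. The remaining 15 claudins in the tables were low except Cldn12, which reached 75.6 FPKM, and Cldn5, the claudin of endothelium, which reached 6.52 FPKM.

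**Figure D1:**
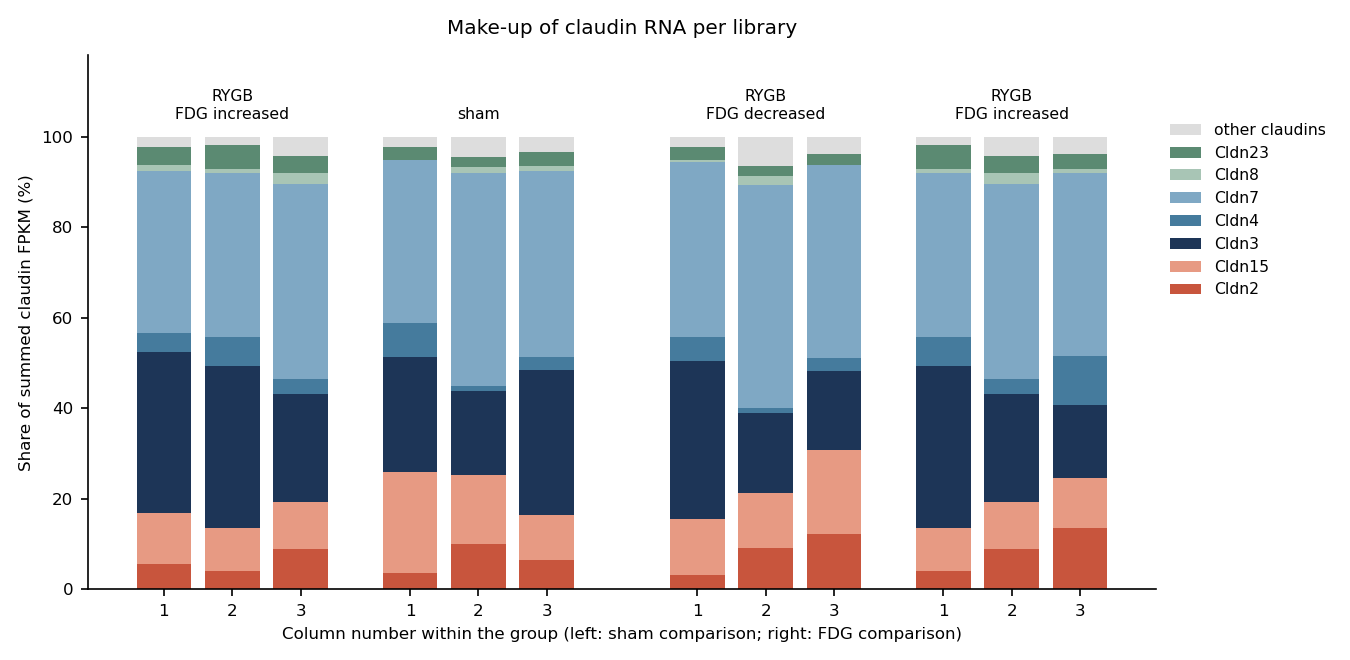
Share of each claudin in the summed claudin FPKM of a library (y axis, %), by column number within each group (x axis). Bars are single library columns, and the FDG-increased bars 2 and 3 on the left are the same libraries as the FDG-increased bars 1 and 2 on the right. Sealing claudins (blue and green) take the larger part of every bar, with Cldn7 at 35.9% to 49.5%.

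By mean level in sham ileum the order was Cldn7, Cldn3, Cldn15, F11r, Ocln, Cldn2, Cldn4, Tjp1, Cldn23 and Cldn8. Cldn7, at 346 to 415 FPKM, did not overlap with Cldn3, at 138 to 294 FPKM. Further down, neighbours in the order overlapped in their ranges, except F11r at 109.8 to 135 FPKM against Ocln at 60.7 to 83.9 FPKM and Cldn23 at 15.8 to 34.3 FPKM against Cldn8 at 0.555 to 10.8 FPKM. In FDG-increased ileum of the sham comparison Cldn7, at 437 to 623 FPKM, and Cldn3, at 346 to 567 FPKM, did overlap.

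Of the 10 members, 7 have an entry in the RefSeq promoter table of the rat (build GRCr8). The stretches of 250 bases before the annotated start are shown for Cldn15, the pore-forming member among the 7, for Cldn3, and for Cldn7 and F11r, whose levels followed each other most closely across libraries (below). Capitals mark matches, on either strand, to the GC box GGGCGG, the AP-1 motif (TGA and TCA around any 1 base) and the Grainyhead motif AACCGG. The TATA box TATAAA, the CDX factor motif TTTATG and the HNF4 motif CAAAGTCCA were searched too. The stretches shown are the 4 that held a match, and those of Cldn8, Ocln and Tjp1 held none. The matches found do not overlap.
Cldn15, chr12:25343626-25343875, minus strand: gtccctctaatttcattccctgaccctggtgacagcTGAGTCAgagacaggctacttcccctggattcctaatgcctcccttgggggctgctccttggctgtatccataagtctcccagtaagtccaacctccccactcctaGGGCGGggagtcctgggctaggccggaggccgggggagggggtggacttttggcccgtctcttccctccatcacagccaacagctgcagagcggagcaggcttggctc
Cldn3, chr12:27346548-27346797, minus strand: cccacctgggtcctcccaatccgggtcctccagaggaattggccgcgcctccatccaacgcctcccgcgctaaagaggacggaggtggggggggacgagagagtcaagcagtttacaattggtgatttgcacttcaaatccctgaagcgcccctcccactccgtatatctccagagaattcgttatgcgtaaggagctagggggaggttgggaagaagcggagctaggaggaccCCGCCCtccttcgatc
Cldn7, chr10:55188420-55188669, plus strand: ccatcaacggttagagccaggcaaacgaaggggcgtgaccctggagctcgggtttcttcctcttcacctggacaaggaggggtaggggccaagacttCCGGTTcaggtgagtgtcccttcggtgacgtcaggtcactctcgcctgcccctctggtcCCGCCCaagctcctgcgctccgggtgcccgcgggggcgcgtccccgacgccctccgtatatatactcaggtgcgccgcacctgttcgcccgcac
F11r, chr13:86405979-86406228, plus strand: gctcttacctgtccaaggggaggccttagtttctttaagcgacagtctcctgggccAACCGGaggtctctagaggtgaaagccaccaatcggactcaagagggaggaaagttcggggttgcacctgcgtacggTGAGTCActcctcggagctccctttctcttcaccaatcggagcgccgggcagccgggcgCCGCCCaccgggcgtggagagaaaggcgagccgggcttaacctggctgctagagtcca
The GC box was present in Cldn15, Cldn3, Cldn7 and F11r, 4 of the 7 members, and in 30.5% of 33469 rat promoter stretches of this length. G and C made up 59.2% (Cldn3) to 65.6% (Cldn7) of these 4 stretches, where the median of all was 51.2%. The Grainyhead motif was present in Cldn7 and F11r, and in 5.67% of all. The AP-1 motif was present in Cldn15, ending 208 bases before the start, and in F11r, ending 111 bases before it, and in 6.34% of all. The TATA box, CDX and HNF4 motifs were in none of the 7 stretches, and in 12.9%, 11.4% and 0.338% of all. A match is a run of letters and not a measured binding site.

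The comparison of FDG-increased RYGB ileum with sham ileum sets bypass ileum of a single FDG label beside ileum without bypass. The sham samples carry no FDG label, so the operation and the label cannot be told apart here. The means of all 5 sealing claudins and of F11r were higher in FDG-increased ileum, with log2 differences of 0.52 to 1.77. The log2 difference was 0.51 for Cldn2, 0.61 for Ocln, 0.11 for Cldn15 and 0.16 for Tjp1. No member passed the threshold of 0.05 for the adjusted p from limma without a block, with Benjamini-Hochberg adjustment over all 10801 genes tested. That threshold was passed by 4 genes, or 0.037% of all. Differences below are of log2(FPKM + 1), and the added 1 makes those of low genes smaller than their true fold.

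Cldn23, a claudin of differentiated surface cells of the gut, stood furthest from sham among the members by its p. It was at 47.4, 84.7 and 55.4 FPKM in FDG-increased ileum and at 34.3, 15.8 and 27.0 FPKM in sham replicates 1 to 3. Every FDG-increased library lay above every sham library. The means were 62.5 ± 19.6 and 25.7 ± 9.31 FPKM (SD, n = 3 each), a 2.43-fold ratio and a log2 difference of 1.27 (SE 0.372; limma adjusted p = 0.481).

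Cldn3 was at 434, 567 and 346 FPKM in FDG-increased ileum and at 294, 138 and 289 FPKM in sham ileum. The groups did not overlap, and the lowest sham value was again in replicate 2. The log2 difference was 0.95 (SE 0.398; limma adjusted p = 0.626). Cldn8, a barrier claudin of distal gut, was at 16.6, 11.9 and 34.0 FPKM in FDG-increased ileum and at 0.555, 10.8 and 10.02 FPKM in sham ileum. Here the low sham library was replicate 1, the library with little Fabp6. The groups did not overlap, by a gap of about 1 FPKM, and the log2 difference was 1.77 (SE 0.733; limma adjusted p = 0.626). Without sham replicate 1 it was 0.81.

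Cldn7 was at 437, 575 and 623 FPKM in FDG-increased ileum and at 415, 346 and 371 FPKM in sham ileum. The groups did not overlap, with a log2 difference of 0.52 (SE 0.307; limma adjusted p = 0.731). F11r was at 169.9, 203 and 278 FPKM in FDG-increased ileum and at 133, 109.8 and 135 FPKM in sham ileum. It was also higher in every FDG-increased library, with a log2 difference of 0.75 (SE 0.328; limma adjusted p = 0.630). Cldn4, a sealing claudin that also binds Clostridium perfringens enterotoxin, was at 50.1, 100.9 and 49.5 FPKM in FDG-increased ileum and at 87.3, 7.78 and 27.2 FPKM in sham ileum. Its groups overlapped, and the log2 difference of 1.197 (SE 0.728; limma adjusted p = 0.740) was 0.36 without sham replicate 2 and 2.03 without sham replicate 1.

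The pore-forming claudins overlapped between the groups. Cldn2 was at 67.0, 62.2 and 127 FPKM in FDG-increased ileum and at 42.2, 73.4 and 58.2 FPKM in sham ileum. Its log2 difference was 0.51 (SE 0.381; limma adjusted p = 0.788). Cldn15 was at 139, 154 and 151 FPKM in FDG-increased ileum and at 257, 112 and 88.6 FPKM in sham ileum. The sham libraries spread around the FDG-increased ones, with the highest value in replicate 1, and the log2 difference was 0.11 (SE 0.424; limma adjusted p = 0.974). Without sham replicate 1 it was 0.56, and without sham replicate 3 it was -0.20.

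Ocln was at 76.4, 98.1 and 197 FPKM in FDG-increased ileum and at 60.7, 83.9 and 81.1 FPKM in sham ileum. Its groups overlapped, with a log2 difference of 0.61 (SE 0.403; limma adjusted p = 0.760). Tjp1 was at 25.9, 42.8 and 67.0 FPKM in FDG-increased ileum and at 27.8, 49.97 and 37.7 FPKM in sham ileum, and its log2 difference was 0.16 (SE 0.399; limma adjusted p = 0.950). The library of pair 2 was the highest for Ocln, Tjp1, F11r, Cldn2, Cldn7 and Cldn8.

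**Figure D2:**
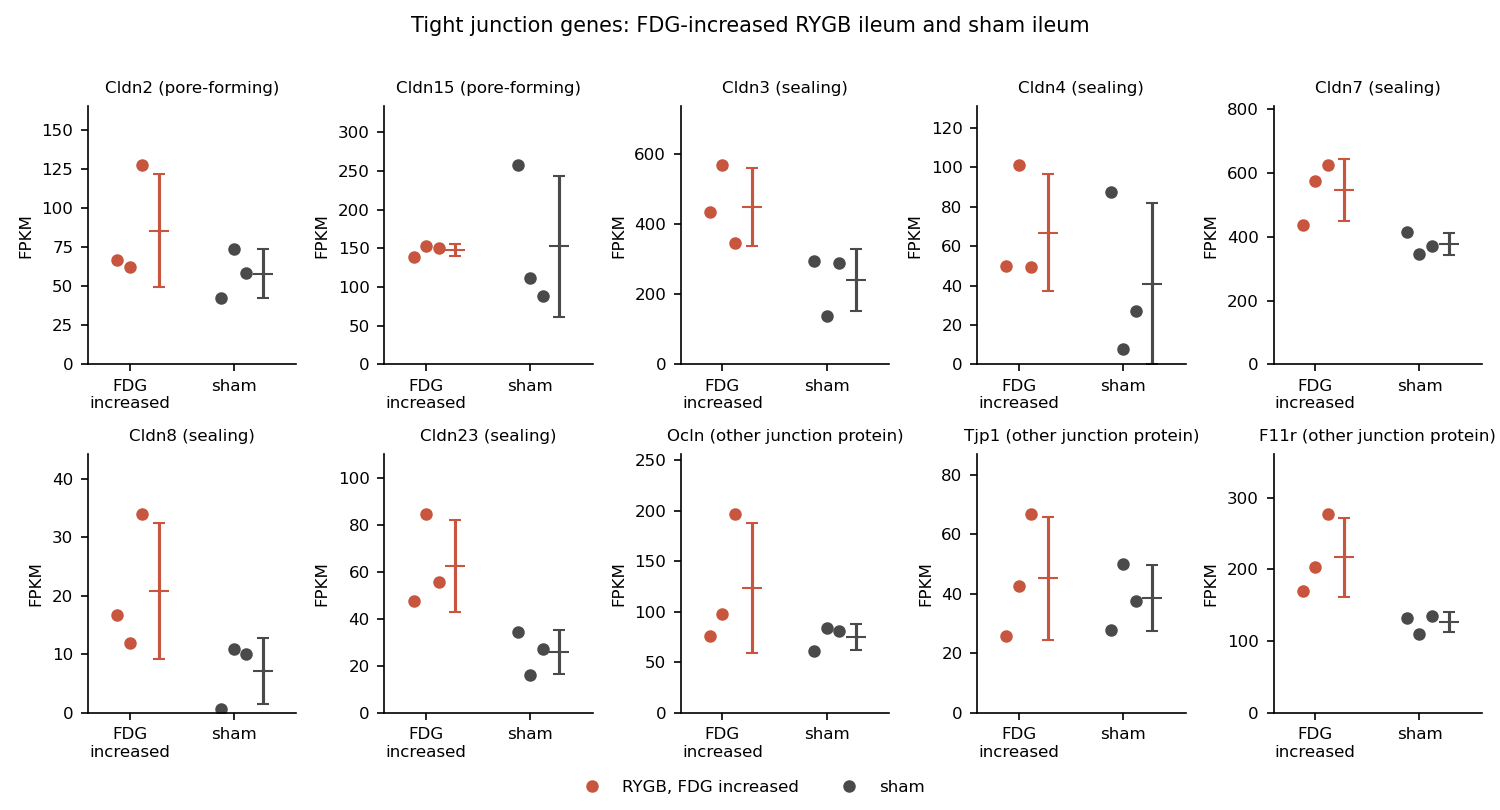
FPKM (y axis) of the 10 tight junction genes in the libraries of the sham comparison, with FDG-increased RYGB ileum left of sham ileum on the x axis. Points are libraries, and the bars beside them are mean ± SD (n = 3 each), stopped at 0. Cldn3, Cldn7, Cldn8, Cldn23 and F11r do not overlap between groups, while the Cldn15 values of sham ileum, 88.6 to 257 FPKM, enclose those of FDG-increased ileum.

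Of the 10 members, 5 lay above sham in every FDG-increased library, 4 of them sealing claudins, where 10.7% of all genes tested did so, and 0 lay below, where 4.44% did. An unadjusted limma p under 0.05 was reached by 4 members, namely Cldn3, Cldn8, Cldn23 and F11r, and by 7.84% of all genes. All 10 members had a positive log2 difference, as did 64.7% of all genes. For Cldn15 the mean FPKM went the other way, at 147.8 in FDG-increased ileum and 152.7 in sham ileum. The median log2 difference was 0.68 over the members and 0.13 over all genes. The FDG-increased library of pair 3, which the sham comparison does not hold, gave lower values for the 5 members that lay above sham. Multiplied by 1.0217, the factor between the tables that the shared libraries give, and with no test, it held 32.2 FPKM of Cldn23, 164 of Cldn3, 9.47 of Cldn8, 412 of Cldn7 and 129 of F11r. Each of these 5 values lay inside the sham range, as did 8 of all 10 members. Cldn2 at 137 FPKM and Cldn4 at 109.6 FPKM lay above every library of the sham comparison.

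Marker levels in the same libraries stand beside these values. In bulk tissue, a change in the number of cells of a type and a change of RNA per cell cannot be told apart. All 8 epithelium markers (Vil1, Krt8, Krt18, Krt19, Krt20, Elf3, Lgals4 and Ezr) had a positive log2 difference, and their summed level was 6862 to 8381 FPKM in FDG-increased ileum and 4004 to 7028 FPKM in sham ileum. Taken relative to these markers within each library, the log2 difference was 0.77 for Cldn23, 1.26 for Cldn8, 0.69 for Cldn4, 0.45 for Cldn3 and 0.01 for Cldn7. That scaling put the median of all genes at -0.38. On it the log2 difference was 0.25 for F11r, 0.01 for Cldn2, -0.40 for Cldn15 and -0.34 for Tjp1. The 8 immediate-early genes summed to 470 to 1174 FPKM in FDG-increased ileum and 111.8 to 247 FPKM in sham ileum, and 3 of the 8 were among the 4 genes called. The distal markers summed to 17130 to 24580 FPKM in FDG-increased ileum and 196 to 11870 FPKM in sham ileum, lowest in sham replicate 1. All 4 immune markers tested had a positive log2 difference, and the immune sum was 64.2 to 117 FPKM in FDG-increased ileum and 30.0 to 48.8 FPKM in sham ileum. All 5 adipocyte markers had a negative one, with sums of 58.7 to 103 FPKM in FDG-increased ileum and 51.0 to 457.2 FPKM in sham ileum. All 5 crypt markers had a negative one too, with sums of 346 to 921 FPKM in FDG-increased ileum and 318 to 964 FPKM in sham ileum. Sham replicate 2, high in adipocyte markers, was the lowest sham library for Cldn3, Cldn4, Cldn7, Cldn23 and F11r. The part of these in the claudin differences was not tested. With equal medians, with quantile normalization and relative to the epithelium markers, the point estimates of Cldn3, Cldn4, Cldn8 and Cldn23 stayed positive, while that of Cldn7 came to 0.04 (SE 0.253) after quantile normalization and those of Cldn15 and Tjp1 turned lower in some of these. All sham libraries came from lane 7, and the 1 FDG-increased library known to share that lane gave log2 differences of 0.61 to 1.87 for the sealing claudins.

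The numbers by which libraries could be paired differ between the tables, and the calls rest on them. With each FDG-increased library given its number in the FDG comparison, and the library found only in the sham comparison matched to sham replicate 3 as the number left over, limma with the block and Benjamini-Hochberg adjustment called 498 genes, or 4.61%, and 3 of the 10 members. These were Cldn8 (adjusted p = 7.2e-09), Cldn23 (adjusted p = 0.00388) and Cldn4 (adjusted p = 0.00910), all sealing claudins and all higher in FDG-increased ileum. Within the matches of sham replicates 1 to 3, FDG-increased first, Cldn8 was at 11.9 and 0.555, 34.0 and 10.8, and 16.6 and 10.02 FPKM. Cldn4 was at 100.9 and 87.3, 49.5 and 7.78, and 50.1 and 27.2 FPKM, so both differences were uneven. Their SEs of 0.261 and 0.324 are moderated by limma toward those of other genes. These p-values thus do not measure the spread of either gene alone. The same 3 members were called among the 6.1% of genes called from pairs 1 and 2 alone, with 1 residual degree of freedom. Relative to the epithelium markers this block called 10.5% of genes and, of the members, Cldn23 (adjusted p = 0.0392). The matched libraries had correlations of 0.23, 0.66 and 0.12 in their deviations from the group means. However, the library of pair 1 correlated more with sham replicate 3 (0.27) than with sham replicate 1. The library found only in the sham comparison correlated more with sham replicate 1 (0.35) than with sham replicate 3, its match. The labels do not say that a number marks anything shared by these groups, so these calls hold only if it does. This numbering was chosen after seeing the data. With the column numbers of the sham comparison itself as the block, limma called 0 members (lowest Benjamini-Hochberg adjusted p = 0.446, for Cldn8).

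**Figure D3:**
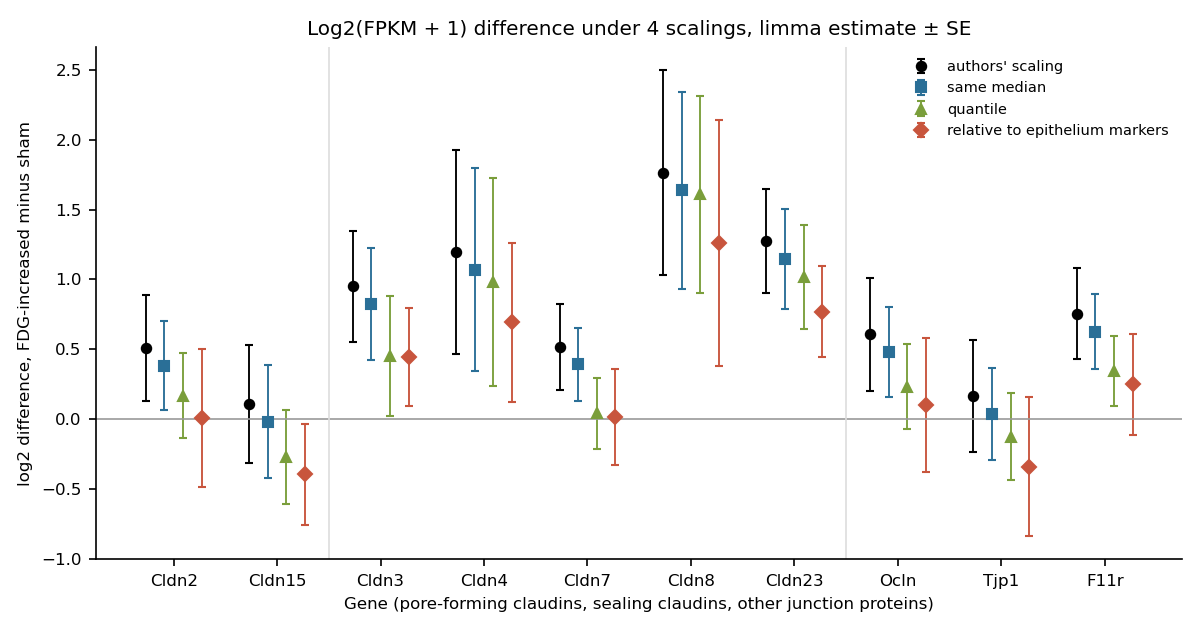
Log2(FPKM + 1) difference between FDG-increased RYGB and sham ileum (y axis; limma estimate, bars are SE) for each gene (x axis), under the authors' scaling, equal medians, quantile normalization and scaling to the epithelium markers. Cldn23 lies between 0.77 and 1.27 under all 4, and Cldn15 changes from 0.11 under the authors' scaling to -0.40 relative to the epithelium markers.

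The second comparison, of FDG-decreased with FDG-increased RYGB ileum, asks what sets bypass ileum apart by its FDG label. Cldn23 was lower in FDG-decreased ileum in all 3 pairs and was the member that passed the test when pairs were modelled. Cldn4, Cldn8, Cldn3 and Cldn2 were also below their partner in all 3 pairs without passing it, and Cldn15 was above its partner in all 3. Without pairs, limma with Benjamini-Hochberg adjustment called 0 of 10739 genes (0%), with 1.02% at an unadjusted p under 0.05 and 0 members among them. With the replicate number as a block it called 122 genes, or 1.14%, and 1 of the 10 members, which was lower, as 0.689% of all genes were called lower. These FDG-increased libraries are in part those compared with sham above, so the direction in one comparison is no check of the other.

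Cldn23 was at 39.2, 27.7 and 20.9 FPKM in FDG-decreased ileum of pairs 1 to 3 and at 82.8, 54.3 and 31.5 FPKM in the FDG-increased partners. The ratio within the pairs was 0.473, 0.510 and 0.664. As groups the values overlapped, since pair 3 was low in both. The log2 difference was -0.86 (SE 0.433; limma adjusted p = 1.000 without the block) and with the block it had an SE of 0.146 and a limma adjusted p of 0.0210. With the block the adjusted p was 0.0246 at equal medians, 0.0358 after quantile normalization and 0.0616 relative to the epithelium markers. Without pair 1 the log2 difference was -0.76 with an adjusted p of 0.326, in a fit with 1 residual degree of freedom.

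Cldn4 was at 72.2, 11.8 and 26.7 FPKM in FDG-decreased ileum and at 98.7, 48.5 and 107 FPKM in the FDG-increased partners. The ratio was 0.731 in pair 1, 0.242 in pair 2 and 0.249 in pair 3, so the size of the difference was uneven. The log2 difference of -1.46 had an SE of 0.652 without the block and 0.327 with it, with a limma adjusted p of 0.189 with the block. Cldn8 was at 5.27, 23.2 and 1.64 FPKM in FDG-decreased ileum and at 11.6, 33.4 and 9.26 FPKM in the FDG-increased partners. Pair 2 was the highest in both groups and the ratio ran from 0.177 to 0.695. Its log2 difference of -1.16 had an SE of 0.252 with the block (limma adjusted p = 0.0912).

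Cldn3 was at 473, 224 and 153 FPKM in FDG-decreased ileum and at 554, 339 and 161 FPKM in the FDG-increased partners. Pair 1 was the highest and pair 3 the lowest in both groups. Its log2 difference was -0.30 (SE 0.144 with the block; limma adjusted p = 0.587). Cldn7 was at 525, 623 and 375 FPKM in FDG-decreased ileum and at 562, 610.2 and 404 FPKM in the FDG-increased partners, within 10% of the partner in each pair. The log2 difference was -0.06 (SE 0.129 with the block; limma adjusted p = 0.974).

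Cldn2 was at 43.5, 113 and 107 FPKM in FDG-decreased ileum and at 60.8, 125 and 134 FPKM in the FDG-increased partners. Pair 1 was low in both groups, and the log2 difference was -0.31 (SE 0.134 with the block; limma adjusted p = 0.490). Cldn15 was at 167, 154 and 163 FPKM in FDG-decreased ileum and at 150.1, 148 and 109 FPKM in the FDG-increased partners. It was the 1 member whose groups did not overlap here, higher in FDG-decreased ileum, where 1.95% of all genes did so, and most of the gap came from pair 3. The log2 difference was 0.26 (SE 0.143 with the block; limma adjusted p = 0.666).

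Ocln, F11r and Tjp1 were highest in pair 2 in both groups. Ocln was at 95.9, 215 and 78.6 FPKM in FDG-decreased ileum and at 95.9, 193 and 74.4 FPKM in the FDG-increased partners. F11r was at 196, 280.2 and 106 FPKM in FDG-decreased ileum and at 198, 272 and 126 FPKM in the FDG-increased partners. Tjp1 was at 34.0, 97.8 and 42.4 FPKM in FDG-decreased ileum and at 41.8, 65.6 and 45.2 FPKM in the FDG-increased partners, with pair 2 high in both. Their log2 differences were 0.08, -0.07 and 0.06 for Ocln, F11r and Tjp1 in this order, with SEs of 0.127, 0.132 and 0.173 with the block (limma adjusted p of 0.960, 0.965 and 0.980).

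**Figure D4:**
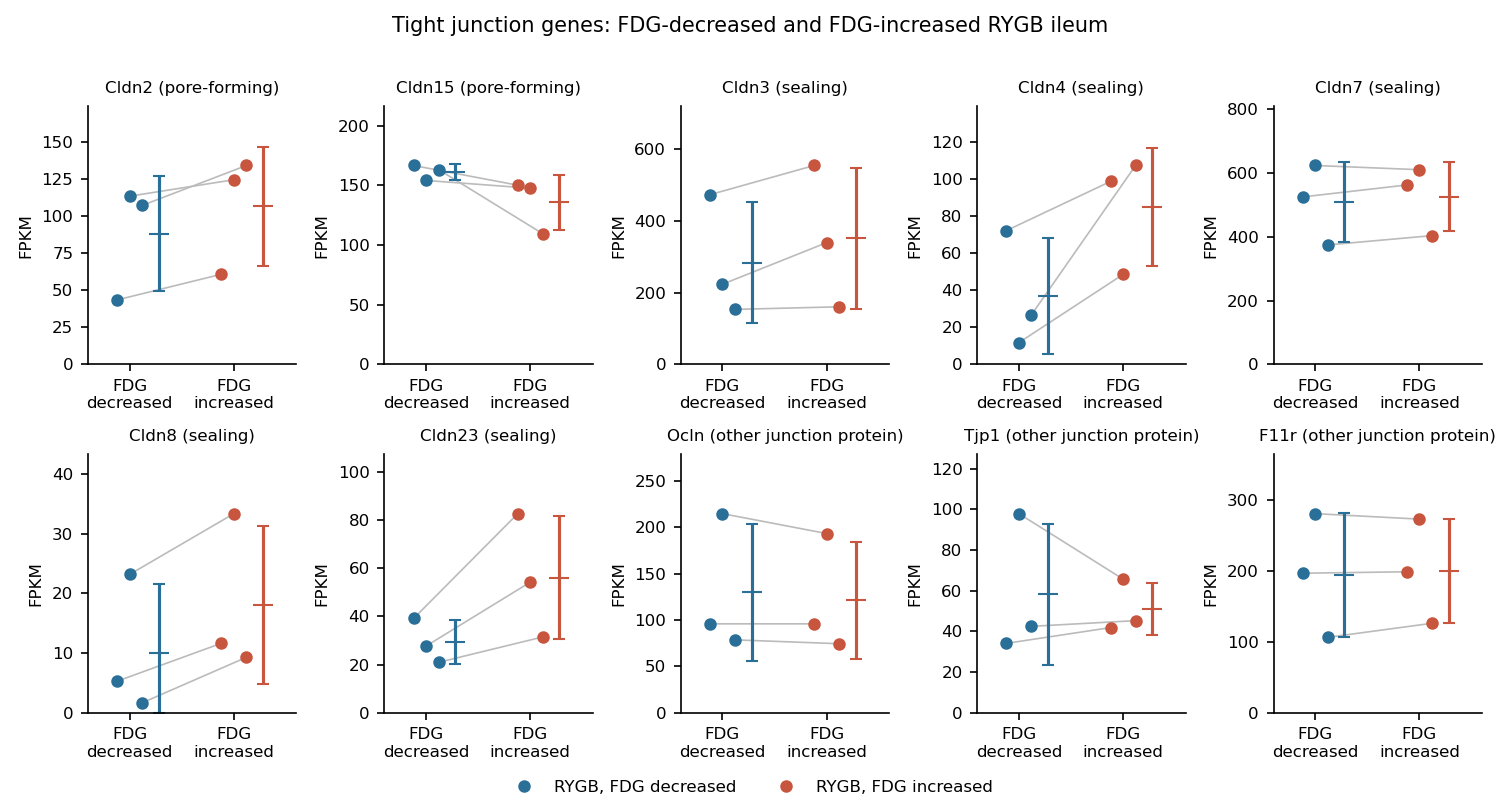
FPKM (y axis) of the 10 tight junction genes in FDG-decreased (left) and FDG-increased (right) RYGB ileum. Points are libraries, grey lines join the libraries of a pair, and the bars are mean ± SD (n = 3 each), stopped at 0. In each pair the FDG-decreased point of Cldn2, Cldn3, Cldn4, Cldn8 and Cldn23 lies below its partner, and that of Cldn15 above it.

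Of the 10 members, 5 were lower in all 3 pairs, 4 of them sealing claudins, where 12.7% of all genes were, and 2 were higher in all 3, where 17.2% were. The count of 2 holds Ocln, whose values in pair 1 differ only beyond the printed digits. The median log2 difference was -0.19 over the members and 0.02 over all genes. Among the epithelium markers 7 of 8 had a negative log2 difference, and their sum was 4408 to 7561 FPKM in FDG-decreased ileum and 4348 to 8193 FPKM in FDG-increased ileum. Relative to these markers, where the median of all genes was 0.14, the log2 difference was -0.74 for Cldn23, -1.34 for Cldn4, -1.04 for Cldn8 and 0.06 for Cldn7. The immediate-early genes summed to 107.5 to 301 FPKM in FDG-decreased ileum and 209 to 1147 FPKM in FDG-increased ileum, and 5 of the 8 were called lower with the block. The proximal markers summed to 33.4 to 56.2 FPKM in FDG-decreased ileum and 13.6 to 32.1 FPKM in FDG-increased ileum. Of these 5 markers 4 had a positive log2 difference, and 2 were called higher with the block. All 4 distal markers tested had a negative one, and 0 were called. In pairs 1 to 3 the distal sum was 16138, 19235 and 5611 FPKM in FDG-decreased ileum and 19418, 24090 and 7644 FPKM in the FDG-increased partners. The part of these in the claudin differences was not tested. Pairs 1 and 2 each shared a lane, and pair 3 did not; pairs 1 and 2 alone gave a log2 difference of -1.004 for Cldn23.

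**Figure D5:**
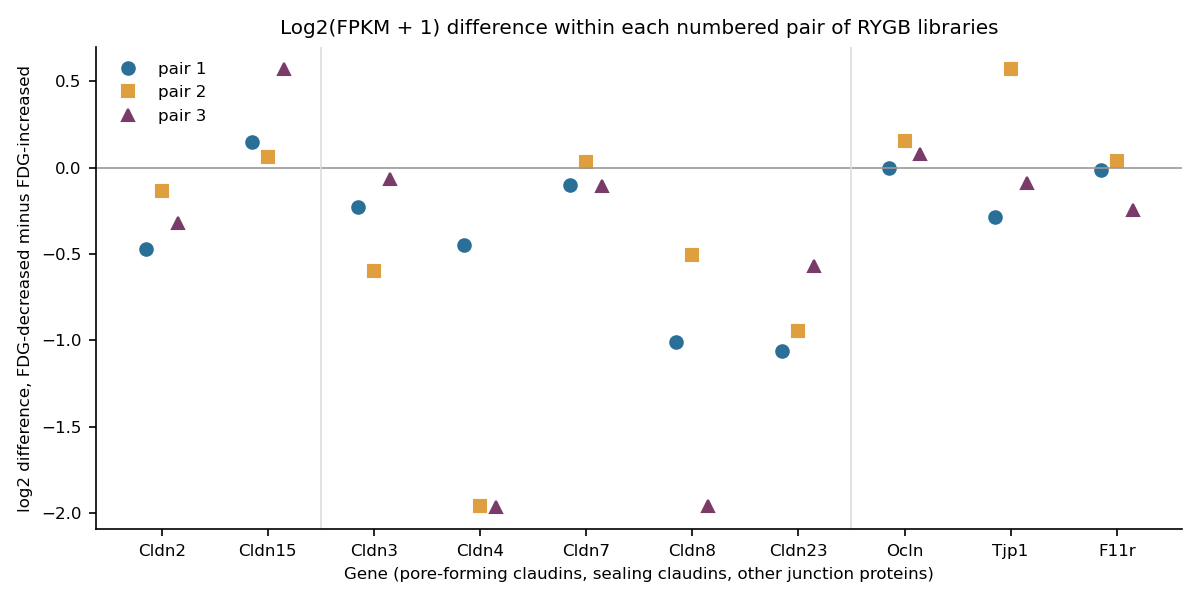
Log2(FPKM + 1) difference between the FDG-decreased and FDG-increased library of each numbered pair (y axis) for each gene (x axis). Points are pairs, and the grey line is no difference. All 3 points of Cldn23 lie between -1.06 and -0.57, and Cldn4 is at -0.45 in pair 1 and at -1.96 and -1.97 in pairs 2 and 3.

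FDG-decreased ileum and sham ileum lie in separate tables, so they are set side by side with no test, after the same multiplication of the FDG-decreased values. All 10 members overlapped between these groups, where 3.43% of genes lay wholly higher and 1.69% wholly lower in FDG-decreased ileum. The difference in mean log2(FPKM + 1), FDG-decreased minus sham, ran from 0.11 for Cldn4 to 0.68 for Ocln. Its median was 0.39 over the members and 0.13 over all genes. For Cldn4 the mean FPKM went the other way, at 37.7 in FDG-decreased ileum and 40.7 in sham ileum. Cldn23 was at 40.0, 28.3 and 21.4 FPKM in FDG-decreased ileum and at 34.3, 15.8 and 27.0 FPKM in sham ileum. F11r was at 200.5, 286 and 108 FPKM in FDG-decreased ileum and at 133, 109.8 and 135 FPKM in sham ileum. Cldn15 was at 170.2, 157 and 167 FPKM in FDG-decreased ileum, between the sham values of 257 FPKM in replicate 1 and 112 and 88.6 FPKM in replicates 2 and 3.

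The summed FPKM of Cldn2 and Cldn15 over that of the 5 sealing members gave a ratio of pore-forming to sealing claudin RNA in each library. It was 0.210, 0.161 and 0.251 in FDG-increased ileum of the sham comparison and 0.360, 0.358 and 0.203 in sham ileum. Sham replicate 3 lay within the FDG-increased values. The means were 0.207 ± 0.0449 and 0.307 ± 0.0904 (SD, n = 3 each). In the FDG comparison the ratio was 0.188, 0.294 and 0.468 in FDG-decreased ileum and 0.161, 0.251 and 0.342 in the FDG-increased partners, higher in FDG-decreased ileum in each pair. Pair 3 had the highest ratio in both groups. The balance inside the pore-forming pair also varied. Cldn2 over Cldn15 was 0.261, 0.736 and 0.657 in FDG-decreased ileum and 0.405, 0.844 and 1.23 in the FDG-increased partners, and 0.164 in sham replicate 1 beside 0.655 and 0.656 in sham replicates 2 and 3.

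Across the 10 distinct libraries on the scale of the sham table, the members fell together in different ways. These correlations of log2(FPKM + 1) describe libraries that share pairs and scaling. Cldn7 and F11r followed each other (Pearson r = 0.96, Spearman rho = 0.90, and r = 0.92 without the 2 libraries farthest from the median of Cldn7). Cldn3 and Cldn23 did so less tightly (r = 0.86, rho = 0.90, and r = 0.74 without the 2 farthest). Ocln and Tjp1 had r = 0.86, but rho = 0.59 and r = 0.45 without the 2 farthest, so that likeness rests on the libraries of pair 2. Cldn2 and Cldn15 had r = -0.30 (rho = -0.39). With the mean of the epithelium markers, Cldn3 had r = 0.93 and Cldn23 r = 0.85, while Cldn2 had r = -0.46 and Tjp1 r = -0.20.

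Over the same 10 libraries and 10652 genes, the genes most like Cldn2 were Mboat1 (r = 0.96), Prom1 (r = 0.95) and Tnfrsf11b (r = 0.94). Those most like Cldn15 were P4hb (r = 0.98), Rbp2 (r = 0.97) and Eno1 (r = 0.96). Rbp2 encodes the retinol-binding protein of absorptive cells, P4hb a protein disulfide isomerase and Eno1 a glycolytic enzyme. The single closest gene was Cyth2 for Cldn3, Fhl2 for Cldn4, Trim31 for Cldn7, Rbm4b for Cldn8, Mafk for Cldn23, Rab5b for Ocln, Dmtf1 for Tjp1 and Acadm for F11r, with r of 0.95 to 0.99. These values are the highest among 10652 genes over only 10 libraries, and none was tested. They were not computed again without the farthest libraries. For Cldn15 the farthest was sham replicate 1, at 257 FPKM.

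Partners of the junction were read from lists of related genes. No gene of these lists was called in either comparison by limma with Benjamini-Hochberg adjustment, without a block or with the number in its own table as the block. Of 12 other tight junction membrane proteins, 9 had a positive log2 difference in FDG-increased against sham ileum, with a median of 0.26. Lsr, the lipolysis-stimulated receptor of tricellular junctions, was at 160.3 ± 24.3 FPKM in FDG-increased ileum and 85.0 ± 15.5 FPKM in sham ileum (SD, n = 3 each), without overlap. Ildr1, its relative, was at 7.11 ± 0.967 and 4.06 ± 1.13 FPKM, and Cxadr, the coxsackievirus and adenovirus receptor, at 64.3 ± 31.7 and 33.6 ± 1.85 FPKM, in FDG-increased and sham ileum (SD, n = 3 each). Their lowest limma adjusted p was 0.555.

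Of 15 scaffold and polarity proteins tested, 13 had a positive log2 difference against sham, with a median of 0.26 and limma adjusted p of 0.630 at the lowest. Crb3, an apical polarity protein, was at 89.7 ± 21.4 FPKM in FDG-increased ileum and 51.1 ± 16.9 FPKM in sham ileum (SD, n = 3 each). Mpp5, its scaffold partner, and Ybx3, a transcription factor held at the junction, had log2 differences of 0.89 and 0.54. Of 9 adherens junction proteins 7 were positive, with a median of 0.32, and Pvrl3 (nectin 3), Cdh17 and Ctnna1 had log2 differences of 0.58, 0.61 and 0.32. Desmosome proteins divided evenly, 3 of 6 on each side, with Ppl at -0.52, Dsc2 at 0.67 and Pkp3 at -0.49. Among 18 regulators 16 were positive, with a median of 0.16. Epcam, the partner of Cldn7, was at 1429 ± 367 FPKM in FDG-increased ileum and 848 ± 145 FPKM in sham ileum (SD, n = 3 each), without overlap. F2rl1, a receptor for proteases, and Spint1, a protease inhibitor, had log2 differences of 0.88 and 0.68. Of 9 sodium-linked transporters 5 were positive. Slc9a2, a sodium-proton exchanger, had a log2 difference of 0.94, Slc9a3 of -0.49 and Slc2a2 of -0.74. In sham ileum Slc9a3 ran from 16.4 to 91.6 FPKM with a median of 22.4 FPKM. Slc2a2 ran from 7.01 to 261 FPKM there, with a median of 22.5 FPKM. Of the other claudins, 3 passed the level filter, and Cldn12, Cldn5 and Cldn1 had log2 differences of 0.38, -0.19 and -0.27.

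In the FDG comparison 12 of the 15 scaffold and polarity proteins and 15 of the 18 regulators had a negative log2 difference. The medians were small, and the share of all genes with a negative difference is not given here. Over all genes the median was 0.02. The median log2 difference between FDG-decreased and FDG-increased ileum was -0.01 for the membrane proteins, -0.10 for scaffold and polarity proteins, -0.06 for adherens junction proteins, 0.03 for desmosome proteins, -0.03 for regulators and 0.07 for transporters. Pard6b, a polarity protein, was at 14.3 ± 3.82 FPKM in FDG-decreased ileum and 24.3 ± 3.65 FPKM in FDG-increased ileum (SD, n = 3 each), without overlap, with a log2 difference of -0.75 and a limma adjusted p of 0.0890 with the block. Slc5a1, the sodium-glucose transporter, had a log2 difference of 0.43 and Slc2a2, the glucose exit transporter, of 2.38, with limma adjusted p of 0.279 and 0.437 with the block. The ratio of Slc2a2 within pairs 1 to 3 was uneven, at 5.08, 2.22 and 66.0. In pair 3 the FDG-increased library held only 0.245 FPKM. The other genes named by the rule and reported here had log2 differences between -0.41 and 0.42, among them Cxadr at -0.39, Bves at -0.26, Ildr1 at -0.23, Crb3 at -0.29, Amotl2 at 0.28, Vcl at -0.34, Ppl at 0.42 and F2rl1 at -0.41.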

How the data were processed

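Total RNA of rat ileum was sequenced in 9 samples. Per the labels' protocols, libraries were made with a stranded kit that removes ribosomal RNA. Per the submitters' processing notes, bcl2fastq 1.8.4, STAR 2.6.0a, Cufflinks 2.2.1, Cuffdiff and DESeq2 1.24.0 were used, with no roles or settings stated; the notes list hg19, a human build, while the symbols are those of rat, so no coordinates come from the tables. The authors deposited FPKM per gene and library in 2 tables, each scaled on its own; the unit is read from the values and the named tools. Columns of samples left unused numbered 0. Of 2125 genes the value was 0 in all columns.

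Values were analysed as log2(FPKM + 1) with limma 3.58.1 in R 4.3.3 (intensity trend, robust variances, Benjamini-Hochberg adjustment), within a table, over genes averaging 1 FPKM or more. The fit was tested on simulated data. In the FDG comparison the deviations from the group means of libraries with equal numbers were correlated (0.85, 0.76 and 0.77), so the number was used as a block beside the fit without it; the numbers come from the labels. In the sham comparison the numbers conflict with these, and blocks by either numbering were alternatives. Shared libraries were recognised by a constant ratio, with 99.98% and 99.94% of genes within 1% of it. Lane numbers are those in the labels. Named genes were all 10 members and, of each related list, the 3 with the smallest p in a comparison. Of these, 1 gene is not reported here. Members and lists were chosen with earlier results of these data known. Promoter sequences are from RefSeq, build GRCr8. Alternatives were another pseudocount, no level filter, other scalings, limma without trend and robust variances, the block, single lanes and leaving out each replicate.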

Additional observations from a re-analysis of the deposited data

How the results depend on the processing

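Without the block, no member was called in either comparison under any alternative run. For FDG-increased against sham ileum, limma with Benjamini-Hochberg adjustment called 4 genes, against 1 with a pseudocount of 0.1, 1 at equal medians, 1 relative to the epithelium markers, 0 without the level filter (1055 at an unadjusted p under 0.05), 0 after quantile normalization (812 at an unadjusted p under 0.05) and 39 with the replicate block; leaving out single replicates gave 0 to 13. By the numbers in the sham table, same-numbered libraries had correlations of 0.35, -0.50 and -0.25, and the block called 0 members. Block fits by the numbers of the FDG comparison, chosen after seeing the data, called 498 genes and 3 members, 657 genes and 3 members from pairs 1 and 2 alone, and 1129 genes and 1 member relative to the epithelium markers. The direction of 8 members held in every alternative there. Cldn15 turned to -0.0186 at equal medians, -0.27 after quantile normalization and -0.40 relative to the epithelium markers, and Tjp1 to -0.13 after quantile normalization and -0.34 relative to the epithelium markers. The blocked values relative to the epithelium markers were the same for both, and Cldn15 was -0.16 from pairs 1 and 2 alone. Leaving out single replicates gave -0.20 to 0.56 for Cldn15 and -0.16 to 0.50 for Tjp1. The causes were not tested.

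For FDG-decreased against FDG-increased ileum, limma called 0 genes (110 at an unadjusted p under 0.05) and 122 with the replicate block. Block fits chosen after seeing the data called 101 genes and 1 member at equal medians, 90 genes and 1 member after quantile normalization, and 109 genes and 0 members relative to the epithelium markers. With the block and a pair left out, 35 (without pair 1), 415 (without pair 2) and 346 genes (without pair 3) and 1 to 3 members were called, namely Cldn4 without pair 1, Cldn8 and Cldn23 without pair 2, and Cldn4, Cldn8 and Cldn23 without pair 3. Those fits have a single residual degree of freedom. Without the block, leaving out FDG-decreased replicate 1 called 1 gene and the others 0. Cldn4, Cldn8, Cldn15 and Cldn23 kept their direction in every alternative. Relative to the epithelium markers Cldn7 turned to 0.0607 and F11r to 0.0464, with and without the block, and F11r was 0.0129 in pairs 1 and 2 alone. Leaving out single replicates gave -0.67 to 0.13 for Cldn2, -0.77 to 0.12 for Cldn3, -0.24 to 0.14 for Cldn7, -0.36 to 0.47 for Ocln, -0.38 to 0.36 for Tjp1 and -0.39 to 0.31 for F11r. With the block, leaving out a pair gave -0.19 to 0.24 for Tjp1 and -0.13 to 0.0129 for F11r. Without Cldn7 among the sealing members, the mean ratio of pore-forming to sealing claudins was 0.410 ± 0.148 in FDG-increased and 0.738 ± 0.332 in sham ileum (SD, n = 3 each). Sham replicate 3, at 0.416, lay within the FDG-increased values of 0.282 to 0.572. In the FDG comparison it was 0.875 ± 0.491 in FDG-decreased and 0.548 ± 0.254 in FDG-increased ileum (SD, n = 3 each). By pair the values were 0.356, 0.935 and 1.33 in FDG-decreased ileum and 0.282, 0.572 and 0.789 in the partners, so these groups overlapped too. Depth is unknown, so low values such as Cldn8 in sham replicate 1 have a counting error that cannot be given.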
